A study of Homo sapiens with 6 samples.

Results

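The miRNA content of A549 cells that carried only a scramble siRNA was examined, across all 798 human miRNA probes of the nCounter v3 panel. Of these probes, 150 (18.8%) lay above background in all 3 libraries, and 648 did not. A549 is an established human line of alveolar basal epithelial origin, from a lung adenocarcinoma. The 3 libraries used here (siSCR, of 6 in the series) came from cells that received 100 pmol of the control siRNA, with DharmaFECT as carrier, and were collected 72 h later. The other 3 libraries, from cells treated with an siRNA against APE1 (siAPE1), were not used. The siSCR cells are therefore transfected cells of 1 line and not untreated ones. The study's text calls them biological replicates, but neither it nor GEO's labels say whether each came from its own culture, so the SDs given here measure the spread between these 3 samples, which may be technical.

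A miRNA is a short RNA that guides Argonaute proteins to partly complementary mRNAs, which are then repressed. Pairing rests mainly on the seed, bases 2 to 8 from the 5′ end, so that miRNAs with the same seed form a family with largely shared targets. Many miRNA genes lie side by side and are cut from 1 long transcript, which is called a cluster. In lung adenocarcinoma, miR-21 is known as an oncogenic miRNA and the let-7 family as a brake on RAS and HMGA2.

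In the assay, 100 ng of total RNA was used, each miRNA was joined to a tag by ligation, and barcoded probes were counted without amplification. A miRNA molecule that is captured gives 1 count whatever its length, so that shares of counts need no length scale. A probe's own capture efficiency nevertheless enters its count. The order of miRNAs given below is the order of counts, and the part of probe efficiency in it was not tested. Total depth was 394976, 488407 and 370087 counts in replicates 1, 2 and 3, and the miRNA probes took 67.9%, 67.6% and 69.5% of it. The background limit of a library was the mean plus 2 SD of its 8 negative controls and came to 53.1, 70.6 and 68.0 counts. Shares below are raw counts over all miRNA counts of the same library. No pair of libraries agreed within counting noise (chi-square per degree of freedom of 7.07 to 17.4), so none was treated as a second deposit of another, although this does not show that they came from separate cultures.

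The counts were concentrated in few sequences. The miRNAs that lead the count, with their mature sequences from RefSeq (GRCh38.p14), show how few seeds hold most of the counts. The seed is in capitals.
let-7a-5p: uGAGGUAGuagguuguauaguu
let-7i-5p: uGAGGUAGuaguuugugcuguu
let-7b-5p: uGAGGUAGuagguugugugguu
miR-29b-3p: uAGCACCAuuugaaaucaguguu
miR-29a-3p: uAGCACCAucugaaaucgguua
miR-21-5p: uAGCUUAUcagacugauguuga
miR-125b-5p: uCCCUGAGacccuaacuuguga
miR-125a-5p: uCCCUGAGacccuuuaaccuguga
miR-27b-3p: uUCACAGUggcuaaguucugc
miR-100-5p: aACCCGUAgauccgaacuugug
miR-4454: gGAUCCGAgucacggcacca
miR-7975: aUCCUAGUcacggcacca
The last 2 share 1 probe on the panel, and both end alike at the 3′ side. These sequences resemble the end of a transfer RNA, and RNA of that origin cannot be told apart from a miRNA by this probe.

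let-7a-5p was the most abundant miRNA, with 29691, 37991 and 32035 counts in replicates 1 to 3. It took 11.7% ± 0.709 of the miRNA counts (SD, n = 3 here and throughout). For a single library, counting error was small beside this spread. In replicate 1 the share was 11.1%, with a Wilson 95% interval of 11.0% to 11.2%, which covers counting error only. Its mature sequence is encoded at 3 places, chr9:94175957-94176036 within MIRLET7A1HG, chr11:122146522-122146593 within MIR100HG and chr22:46112749-46112822 within MIRLET7BHG. These host transcripts are long non-coding RNAs. The probe cannot tell the 3 loci apart.

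miR-29b-3p, of a family known to repress DNA methyltransferases and collagens, was second with 22300, 25839 and 21231 counts (8.13% ± 0.270). miR-21-5p came next with 20118, 22558 and 16456 counts (6.91% ± 0.556). Its hairpin, chr17:59841266-59841337, lies within the span of the protein-coding gene VMP1, and it is known to repress PDCD4. The ranges of these leading 3 did not overlap with each other or with the fourth miRNA, and each held the same rank in all 3 libraries.

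The next miRNAs could not all be ordered. let-7i-5p (12232, 15369 and 12353 counts, 4.67%) overlapped with the probe that miR-4454 shares with miR-7975 (12281, 12746 and 10803 counts, 4.21%). This shared probe overlapped with miR-125b-5p (9737, 12590 and 10011 counts, 3.78%), which in turn overlapped with miR-27b-3p (3.58%). miR-29a-3p followed at 3.35%, miR-125a-5p at 3.03% and miR-100-5p at 2.72%. Of the 20 leading miRNAs, 12 had a range of shares that overlapped with that of the next in order. Then came let-7b-5p (2.52%), miR-23a-3p (2.18%), miR-93-5p (2.01%), miR-15b-5p (1.99%), miR-374a-5p (1.84%), miR-16-5p (1.67%), miR-191-5p (1.61%), miR-25-3p (1.56%), miR-130a-3p (1.32%) and let-7e-5p (1.15%). miR-16-5p, which served as the reference of the study's quantitative PCR, gave 4405, 5325 and 4524 counts.

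**Figure D1:**
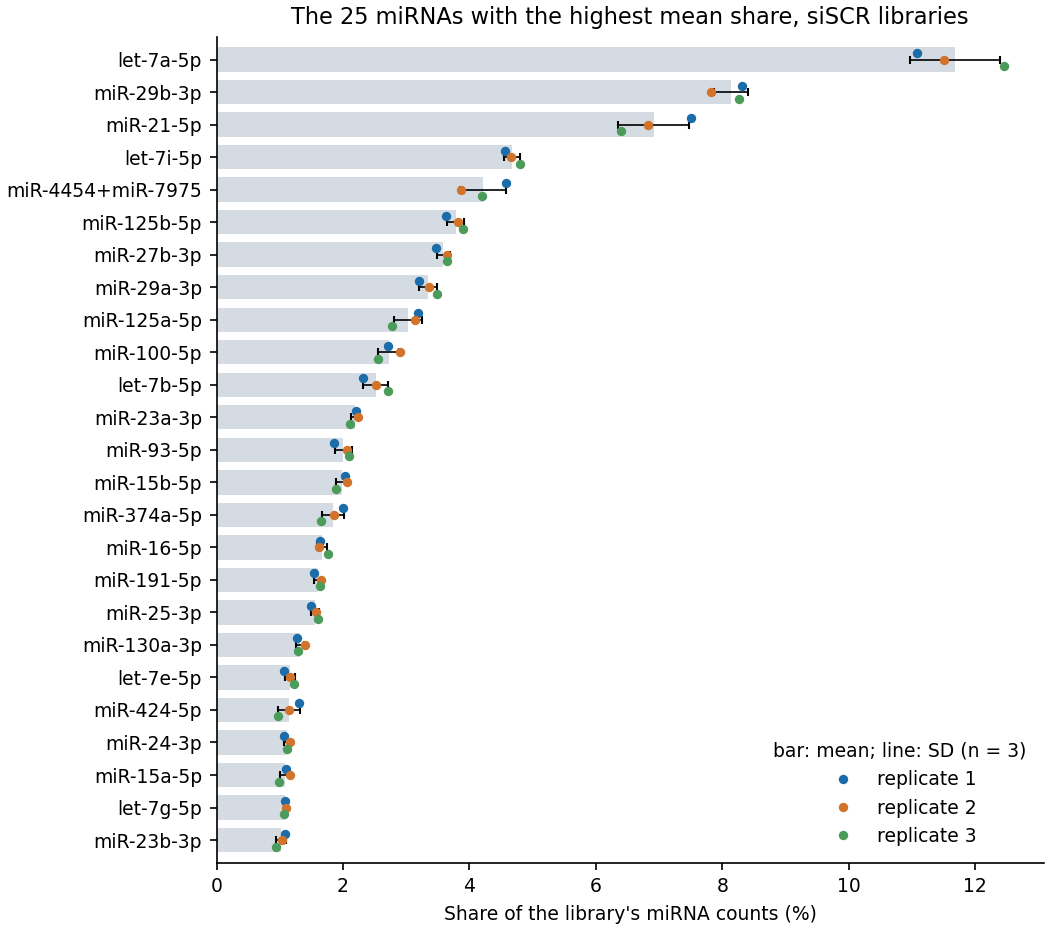
Share of the library's miRNA counts (%, horizontal axis) of the 25 miRNAs with the highest mean share, each with 1 point per siSCR replicate, a bar for the mean and a line for the SD (n = 3). The leading 3 miRNAs, at 11.7%, 8.13% and 6.91%, are separated from the rest, while most neighbours below them overlap.

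The 10 leading miRNAs held 52.1% ± 0.501 of all miRNA counts, and 10 were also the fewest that reached 50%. The 20 leading miRNAs held 69.9% ± 0.491 and the leading 100 held 91.6% ± 0.102. It took 25 miRNAs to reach 75% of the counts and 82 to reach 90%. Among the 150 miRNAs above background, 25 had a mean share of 1% or more and together held 75.4%. A further 60 lay between 0.1% and 1% and held 15.1%, and 65 lay under 0.1% and held 3.16%. The widest step between neighbours among the 150 came after the 29th, where miR-99b-5p at 0.653% was followed by miR-181a-5p at 0.399%, a ratio of 1.63. All 150 together held 93.6% of the counts, and the mean of the negative controls, taken over 798 probes, amounts to 7.07% to 8.11% of the counts of a library.

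**Figure D2:**
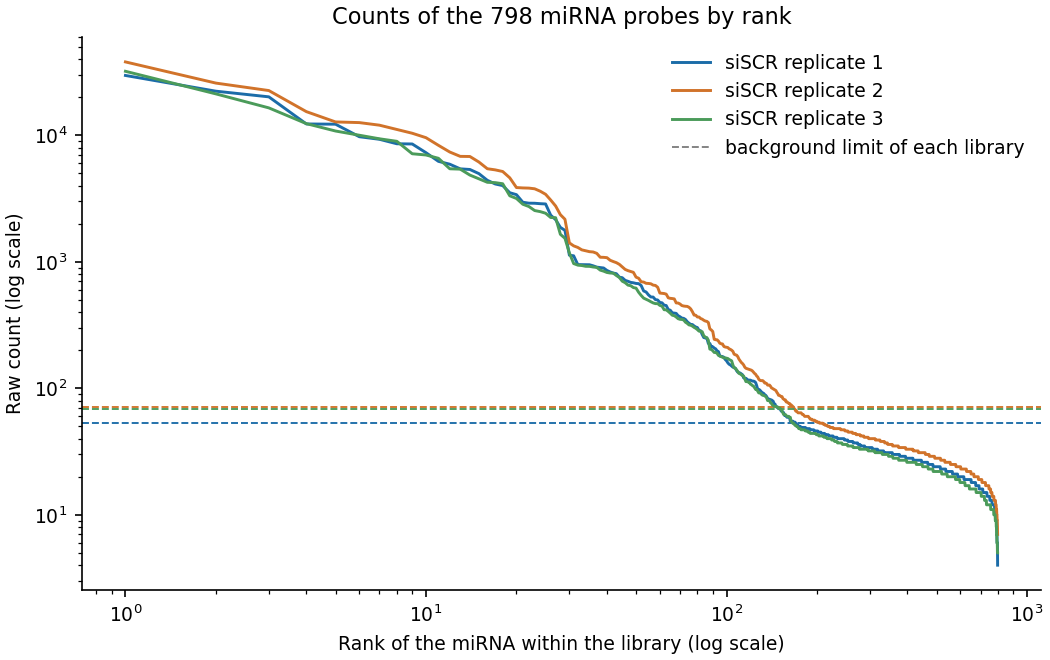
Raw count (vertical axis, log scale) of the 798 miRNA probes against their rank within the library (horizontal axis, log scale), with 1 line per siSCR replicate and a dashed line at each library's background limit. The 3 curves run side by side, cross their limits at between 151 and 169 miRNAs and flatten below them.

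Near the limit the order carried little information. The 5 miRNAs closest to it from above were miR-485-3p, miR-450b-5p, miR-1285-5p, the shared probe of miR-500a-5p and miR-501-5p, and miR-154-5p, at 1.03 to 1.05 times the limit in their lowest library. The 5 closest from below were miR-200c-3p, the shared probe of miR-181b-5p and miR-181d-5p, miR-593-3p, miR-1246 and miR-337-5p, at 0.970 to 0.896 times the limit. Of the 648 miRNAs not counted as above background, 619 were over the limit in no library, 21 in 1 and 8 in 2. These counts are not zeros, since the lowest miRNA counts were 4, 7 and 5 and the median counts 28, 33 and 26. A miRNA in this range was not detectable at this depth, which is not to say that it is absent. The limit itself rested on 1 control sequence. The highest negative control gave 57, 77 and 77 counts against limits of 53.1, 70.6 and 68.0, and without it the limits were 32.2, 38.3 and 27.7 counts and 259 miRNAs were above background.

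By seed, few families held most of the counts. Of 777 probes for a single miRNA, 688 had a RefSeq sequence, with 568 different seeds. A member above background was found for 96 of these seeds, the 5 most counted seeds held 53.6% of all miRNA counts and the 10 most counted held 68.2%.

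The let-7 family, with the seed GAGGUAG, led with 22.2% ± 1.10 of the counts, at 21.2%, 22.0% and 23.4% in replicates 1 to 3. Of its 10 probes 9 were above background, against 18.8% of all probes. let-7a-5p alone made up 52.6% of the family. Behind let-7i-5p, let-7b-5p and let-7e-5p came let-7g-5p (2901, 3611 and 2733 counts), let-7d-5p (950, 1195 and 920), let-7c-5p (756, 984 and 815), miR-98-5p (701, 851 and 625) and let-7f-5p (499, 563 and 452). These 5 were, apart from let-7c-5p, named after their values were seen. The member below background was miR-4458, with 12, 23 and 18 counts, which carries the seed but is otherwise unlike let-7.

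Members of this family differ in 1 to 4 bases and gave very different counts. With positions counted from 1 at the 5′ end and the let-7a-5p base first, let-7f-5p differs by G12A and let-7a-5p had 66.0 ± 5.84 times its count. let-7c-5p differs by A19G, and the ratio was 39.1 ± 0.394. let-7e-5p differs by U9G, and the ratio was 10.1 ± 0.188. let-7i-5p differs by G12U, A17G, U18C and A19U, and had the closest count (ratio 2.50 ± 0.0859). The sequences of the 2 members with the lowest and highest ratio to let-7a-5p among those that differ at a single base are set beside it.
let-7a-5p: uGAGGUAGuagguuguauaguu
let-7e-5p: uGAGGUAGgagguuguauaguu
let-7f-5p: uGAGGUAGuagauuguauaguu
How far each probe also counts its near-identical relatives was not measured in these libraries, so that the level of single let-7 members is less certain than that of the family.

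The miR-29 family (seed AGCACCA) came second with 11.8% ± 0.265, and 3 of 3 members were above background. miR-29b-3p had 2.43 ± 0.149 times the count of miR-29a-3p (8565, 11103 and 8955). miR-29c-3p had 899, 1004 and 683 counts and differs from miR-29a-3p only by C10U, with a ratio of 11.2 ± 1.80 for miR-29a-3p over miR-29c-3p. The seed AGCUUAU of miR-21-5p held 6.94%, nearly all of it miR-21-5p, since the other probe with this seed, miR-590-5p, had only 82, 86 and 76 counts.

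The miR-125 family, the relatives of the first miRNA found in worms, lin-4, held 6.81% ± 0.141 with 2 of 2 above background. miR-125b-5p and miR-125a-5p were near each other (ratio 1.25 ± 0.135). The miR-15/16 family, known to repress BCL2 and cyclins, held 6.23% ± 0.243 as listed, which includes miR-503-5p with the seed AGCAGCG. The seed AGCAGCA alone held 5.91% ± 0.253. In it miR-15b-5p, miR-16-5p, miR-424-5p (3514, 3774 and 2491 counts) and miR-15a-5p (2955, 3834 and 2540 counts) were all above 1%. Its members miR-497-5p (47, 48 and 39 counts) and miR-195-5p (26, 45 and 24 counts), which carry the same seed, were below background.

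Further families of high count were miR-99/100 (3.72%, 3 of 3 above background), miR-27 (3.62%, 2 of 2), miR-23 (3.21%, 2 of 3), miR-17/20/93/106 (2.70%, 4 of 5), miR-374 (2.21%, 2 of 3) and miR-25/92 (1.83%, 3 of 6). Of all probes 18.8% were above background. These families, like miR-29 and miR-125, are named for their high counts, so that passing a count limit adds little about their members. In each of the miR-27, miR-25/92, miR-130/301 and miR-374 families a single member held most of the counts. miR-27b-3p had 9293, 12013 and 9377 counts, for example, and miR-27a-3p, which has the same seed, had 88, 109 and 80. In the miR-103/107 family, miR-107 had 907, 1166 and 823 counts and miR-103a-3p 34, 40 and 46, below background. These 2 sequences differ only by C22G, next to the 3′ end. No ratio is given, since miR-103a-3p was not above the limit.
miR-107: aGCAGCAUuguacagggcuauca
miR-103a-3p: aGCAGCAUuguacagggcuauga

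**Figure D3:**
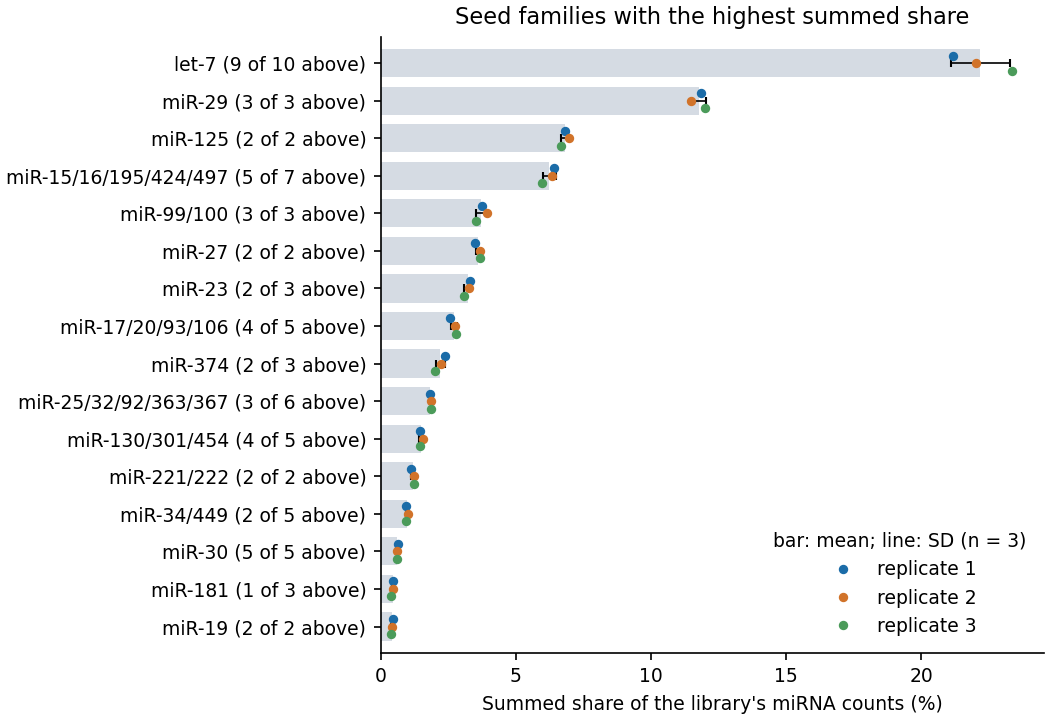
Summed share of the library's miRNA counts (%, horizontal axis) of 16 seed families, with 1 point per siSCR replicate. Bars give the mean and lines the SD (n = 3). Beside each name stands how many of its probes were above background. These 16 had the highest sums among the family lists, which leave out the seeds of miR-21-5p, miR-191-5p and miR-24-3p. The miR-15/16 bar includes miR-503-5p, whose seed is AGCAGCG. The let-7 family at 22.2% and the miR-29 family at 11.8% lead. Both are apart from the other families shown by more than the spread between replicates, while neighbours such as miR-99/100 and miR-27 overlap.

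Other families on the lists held 1.48% ± 0.0632 of the counts (miR-130/301/454) or less. miR-34a-5p, a direct p53 target, had 2335, 3076 and 2238 counts (0.891% ± 0.0350), and miR-34c-5p had 111, 137 and 87, while the other 3 of the 5 miR-34/449 probes were below background. miR-194-5p and miR-192-5p, also known to respond to p53, together held 0.773% ± 0.106. miR-221-3p (1870, 2759 and 2231 counts) and miR-222-3p (1115, 1336 and 909), repressors of the cell cycle inhibitor p27, together held 1.19% ± 0.0683. The miR-30 family, abundant in many epithelia, had 5 of 5 members above background, against 18.8% of all probes. It held only 0.614%, with miR-30a-5p at its head (577, 674 and 516 counts). miR-181a-5p had 1127, 1410 and 903 counts.

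The miRNAs were also grouped by position. A cluster here was a set of hairpins within 10 kb of each other. Hairpins on chr8 were left out, and only probes matched to a RefSeq hairpin were counted. Of 54 such clusters, 15 had every matched probe above background, 17 had some and 22 had none. Probes without a match, such as that of miR-34c-5p, do not enter these numbers. Because a mature sequence can be made at several loci, its counts were assigned to each of them, and sums of clusters cannot be added up. The highest sums were those of clusters that encode let-7a-5p, each with all of its counts. These were MIRLET7A2 to MIR100 on chr11 (14.4%), MIRLET7A3 to MIRLET7B on chr22 (14.2%) and MIRLET7A1 to MIRLET7D on chr9 (12.2%). The cluster of MIR29A and MIR29B1, chr7:130876747-130877539, held 11.5% ± 0.279, of which miR-29b-3p is also encoded at chr1:207801852-207802523. The cluster of MIR99B, MIRLET7E and MIR125A, chr19:51692612-51693339, within the span of SPACA6, held 4.87% ± 0.164. All 4 of its probes were above background and none has a RefSeq hairpin elsewhere. The cluster of MIR23B, MIR27B and MIR24-1, chr9:95085208-95086088, within AOPEP, held 5.72% ± 0.113. Its paralog of MIR23A, MIR27A and MIR24-2, chr19:13836287-13836659, within MIR23AHG, held 3.33% ± 0.0934. miR-24-3p (2864, 3861 and 2849 counts) is counted in both.

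Neighbours from the same transcript could be far apart in count or close. In the chr19 cluster miR-23a-3p had 5904, 7370 and 5433 counts beside the 88, 109 and 80 of miR-27a-3p. The miR-106b-25 cluster at 7q22.1, within MCM7, held 3.77% ± 0.187, and in it miR-93-5p had 4975, 6810 and 5397 counts, miR-25-3p 4001, 5170 and 4137 and miR-106b-5p 526, 650 and 495. The miR-17-92 cluster, chr13:91350605-91351391, a MYC-driven oncogenic cluster and the paralog of miR-106b-25, held 1.03% ± 0.0562. In it 6 of 7 probes were above background (85.7%, against 18.8% of all probes). Within it miR-19b-3p had 713, 870 and 647 counts and miR-92a-3p 72, 106 and 131. The probes of miR-17-5p and miR-20a-5p are shared with miR-106a-5p and miR-20b-5p of the X chromosome. The probes that belong to that X cluster only (miR-363-3p, miR-18b-5p and miR-363-5p) were all below background.

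On the X chromosome, the cluster of miR-424 and miR-503 at Xq26.3 had 4 of 10 probes above background (40%, against 18.8% of all probes). It held 1.86% of the counts. The 4 were, in order, miR-424-5p, miR-503-5p (831, 1078 and 859 counts), miR-450a-5p (805, 954 and 702) and miR-450b-5p (80, 118 and 70). miR-542-3p of the same cluster was below background (49, 41 and 31). The cluster at Xp11.23 had 3 of 12 probes above background (25%, against 18.8% of all probes). These were miR-362-5p, miR-660-5p and the shared probe of miR-500a-5p and miR-501-5p, at 0.0257% to 0.0445% of the counts. Without the highest negative control 6 of its 12 probes were above background, against 259 of all 798 probes.

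The imprinted DLK1-DIO3 region at 14q32, whose miRNAs are made from the maternal chromosome and are known from embryo, placenta and brain, was partly above background. Of its 72 probes 18 (25%) were above background, against 18.8% of all probes, and together all 72 held 1.61% ± 0.0268 of the counts, or 1.01% ± 0.0592 with the mean of the negative controls subtracted. miR-495-3p led with 454, 555 and 405 counts, followed by miR-376a-3p (368, 473 and 350), miR-127-3p (319, 445 and 326) and miR-379-5p (250, 345 and 315). The highest of them, miR-495-3p, held 0.165% of the counts. The number of probes above background depends on the limit. Without the highest negative control it was 29 of 72, against 259 of all 798 probes.

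Some large groups had 1 member or none above background, against 18.8% of all probes. C19MC, the primate-specific cluster of placenta and stem cells at 19q13.42, had 1 of 41 probes above background, miR-1283 (226, 331 and 283 counts), and its next probe was miR-498 at 45, 60 and 53. The list of the miR-506/514 cluster at Xq27.3, known from testis, had 0 of 25, led by miR-514b-5p with 46, 42 and 45 counts. This list also holds members of the separate miR-888/892 group, such as miR-888-5p and miR-891b. Hairpins MIR892C to MIR892B of that group lie at chrX:145992750-145997274, and MIR510 to MIR514A3 at chrX:147272335-147284728. The stem cell cluster miR-371/372/373 had 0 of 4. The miR-548 family, which derives from transposable elements and is spread over the genome, had 1 of 30 probes above background, miR-548ar-5p (144, 244 and 204 counts). The other 29 members of this family were not above the limit in all 3 libraries. Without the highest negative control these numbers were 4 of 41 for C19MC, 3 of 25 for the miR-506/514 list, 10 of 30 for miR-548 and still 0 of 4 for miR-371/372/373. Of all 798 probes 259 were then above background, so that miR-548 lay near the share of all probes.

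**Figure D4:**
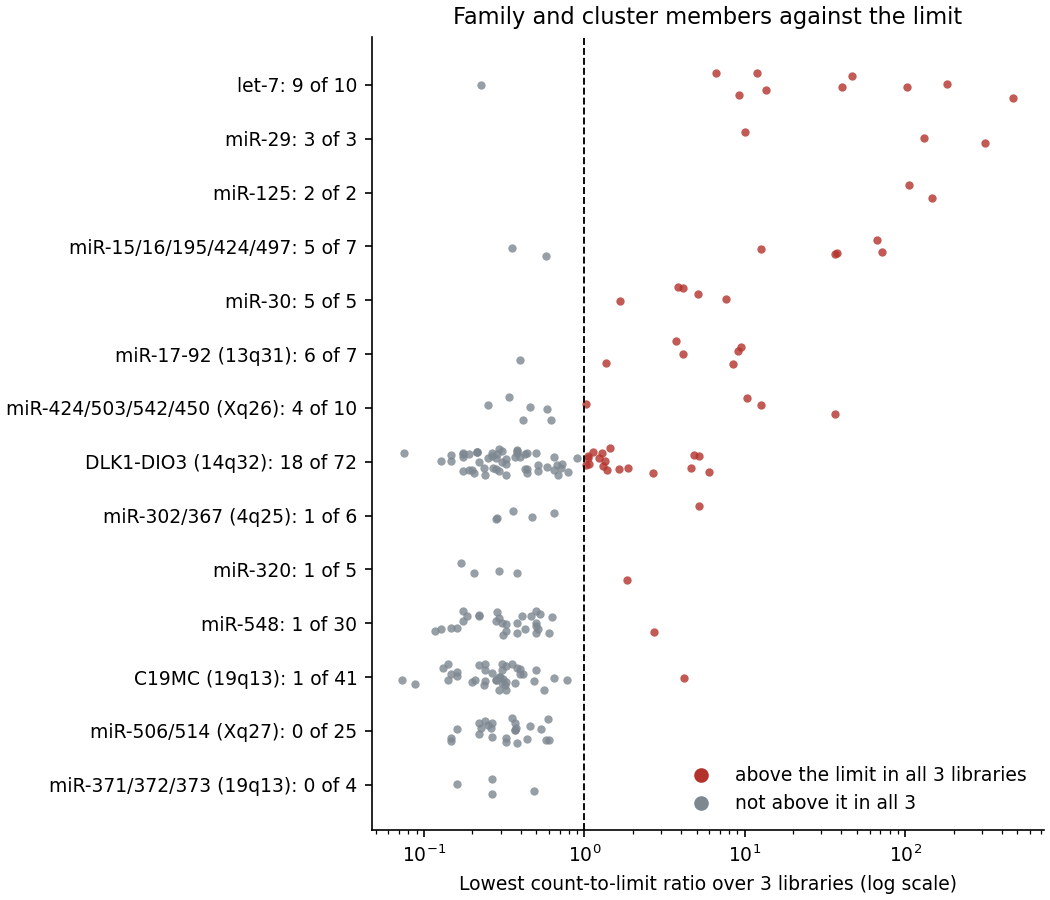
Members of 14 families and clusters (rows) by their count relative to the background limit in the library where this ratio was lowest (horizontal axis, log scale; dashed line, the limit); red points were above the limit in all 3 siSCR libraries and grey points were not. let-7, miR-29 and miR-125 members lie at up to 471 times the limit, with miR-4458 of the let-7 family below it, the 72 members of 14q32 straddle it, and C19MC, miR-548, miR-320 and miR-302/367 each show 1 isolated member above it.

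In the miR-302/367 cluster, a hallmark of pluripotent cells, 1 of 6 probes was above background (16.7%, near the 18.8% of all probes). This was miR-302d-3p, with 336, 424 and 351 counts and rank 74, from the hairpin chr4:112648004-112648071 within LARP7. Below it came miR-302b-3p (49, 64 and 44 counts), miR-302a-3p (44, 39 and 32) and miR-302c-3p (19, 54 and 28), all below background. Without the highest negative control 3 of the 6 probes were above background, against 259 of all 798 probes. miR-302d-3p and miR-302b-3p share the seed and most of the bases behind it, as the sequences show.
miR-302d-3p: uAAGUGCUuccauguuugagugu
miR-302b-3p: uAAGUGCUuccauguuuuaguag
A similar case of 1 member apart from its relatives was miR-320e (128, 157 and 126 counts), while miR-320a (32, 27 and 35), miR-320c and miR-320d were below background.

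The lists of tissue markers described the line further. Of 10 epithelial miRNAs 4 were above background (40%, against 18.8% of all probes), and their 10 probes summed to 0.353% ± 0.0119 of the counts. Without the highest negative control 6 of the 10 were above background, against 259 of all 798 probes. miR-183-5p (226, 289 and 198), miR-182-5p (213, 281 and 203) and miR-96-5p (205, 227 and 173), which come from 1 cluster at 7q32, were within a narrow range of each other. The miR-200 family, known to hold epithelial cells in their state by repressing ZEB1 and ZEB2, was at the limit. miR-200b-3p (81, 96 and 72 counts) was above it in 3 libraries, miR-200c-3p (75, 86 and 66) and miR-200a-3p (69, 78 and 48) in 2, and miR-141-3p (30, 33 and 40) and miR-429 (18, 24 and 26) in none. miR-205-5p and miR-203a-3p of squamous epithelia were also below background. Of the 4 epithelial miRNAs above background, 3 belonged to the miR-183 cluster and 1 to the miR-200 family. The epithelial origin of the line was thus not matched by high levels of the miR-200 family. Without replicate 3, miR-200c-3p and miR-200a-3p were above the limit in both other libraries.

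Of 5 miRNAs of multiciliated airway cells 1 was above background (20%, near the share of all probes). This was miR-34c-5p, and miR-449a (19, 18 and 14 counts), miR-449b-5p and miR-449c-5p were not. None of the 7 blood markers was above background in all 3 libraries. miR-142-3p (59, 53 and 42 counts) was so in 1, and miR-223-3p of myeloid cells (13, 18 and 17) and miR-451a of red cells (18, 36 and 26) in none. None of the 7 muscle markers was above background, nor was miR-122-5p of liver (21, 24 and 13 counts) or miR-375 of endocrine cells (29, 35 and 23). The other endocrine marker, miR-7-5p (48, 81 and 54), was over the limit in 1 library. Without the highest negative control, 3 of the muscle markers (miR-133a-3p, miR-206 and miR-208b-3p), 1 of the blood markers (miR-142-3p) and the endocrine marker miR-7-5p were above background. Of all 798 probes, 259 were so with that limit. The mesenchymal miRNAs miR-143-3p (33, 38 and 33) and miR-145-5p (18, 25 and 16) and also miR-214-3p (24, 24 and 19) were below background. The probe for both miR-199a-3p and miR-199b-3p (81, 81 and 60) was above the limit in 2 libraries.

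Markers of other cell types were not wholly absent. miR-126-3p, which is known from endothelial cells, had 649, 838 and 751 counts and ranked 46th. It was the only 1 of the 6 endothelial and mesenchymal probes above background in all 3 libraries (16.7%, near the 18.8% of all probes). Of the 7 neural probes 3 were above background (42.9%, against 18.8% of all probes). These were miR-9-5p (474, 514 and 366 counts), miR-137 (147, 203 and 165) and miR-128-3p (93, 116 and 101). miR-138-5p (27, 51 and 36), miR-153-3p (18, 24 and 21) and miR-129-5p (15, 24 and 17) were not. Nor was miR-124-3p (15, 22 and 21), the most neuron-specific of the 7 in that list. The 7 neural probes summed to 0.289% ± 0.00576 of the counts and the 6 endothelial and mesenchymal ones to 0.327% ± 0.0210, against 0.0638% ± 0.00480 for the 7 blood probes. With the mean of the negative controls subtracted these sums were 0.241%, 0.292% and -0.00206%, so that the blood probes were at background. In RNA from bulk cells, few cells with a high level and many with a low one cannot be told apart.

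Of the 13 miRNAs that the study put forward as its lung adenocarcinoma signature, 8 (61.5%) were above background in the siSCR cells, against 18.8% of all probes. These 8 differed widely in level. The study chose this list in part on these samples. miR-24-3p stood alone at 1.12% of the counts. miR-218-5p followed with 266, 366 and 251 counts, miR-183-5p with 226, 289 and 198, miR-376c-3p with 208, 295 and 182, and miR-146a-5p with 146, 196 and 153. miR-543 (113, 147 and 98), miR-660-5p (114, 142 and 92) and miR-130b-3p (59, 91 and 80) were lower. The other 5 were not above background in all 3 libraries. miR-200c-3p was above it in 2 and miR-92b-3p (32, 73 and 44) in 1, and miR-1246 (48, 66 and 68), miR-33a-5p (51, 48 and 37) and miR-4488 (37, 44 and 30) in none. Without the highest negative control 12 of the 13 were above background in all 3, against 259 of all 798 probes. miR-33a-5p, which is encoded in an intron of SREBF2 and represses the cholesterol exporter ABCA1, was among those whose call turned with that control.

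Features that the limit did not use also differed between miRNAs above background and the others. Of 129 miRNAs above background with a RefSeq sequence, 58.1% began with U, against 33.3% of 559 not above background. The median GC content was 45.5% in miRNAs above background and 50% in the others. By registry number, which follows the order of discovery, 50 of 64 probes of let-7 and miR-1 to miR-99 were above background (78.1%), 78 of 280 of miR-100 to miR-499 (27.9%), 14 of 263 of miR-500 to miR-999 (5.32%) and 8 of 191 of higher numbers (4.19%). The first of these classes held 62.9% of the counts. These are descriptions over probes, which are not independent.

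For 142 precursors the panel had a probe for each arm. Both arms were above background in 9, only the 5p arm in 20, only the 3p arm in 17 and neither in 96. Of all 798 single probes of the panel, 18.8% were above background. In the 9 precursors with both arms (miR-28, miR-30a, miR-30e, miR-125a, miR-151a, miR-181a, miR-361, miR-423 and miR-574, named after their values were seen) the arms could be close or far apart. miR-30a-5p had 1.10 times the count of miR-30a-3p (577, 674 and 516 against 502, 629 and 473). For miR-125a the 5p arm had 92.2 times the count of the 3p arm (79, 115 and 91). In miR-30e and miR-151a the 3p arm was the more abundant, by ratios of 2.62 and 1.62.

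The 3 libraries ranked these miRNAs alike. Over the 150 miRNAs above background, log2 counts of 2 libraries correlated with r = 0.987 to 0.996, and over the 648 others with r = 0.722 to 0.770. These correlations are across miRNAs of the same panel and describe the libraries only. After scaling to positive controls and housekeeping mRNAs, the median coefficient of variation (CV) over the 3 libraries was 10.4%, with quartiles of 6.67% and 15.2%. The steadiest were miR-222-3p (1.21%), miR-660-5p (1.66%), miR-181a-5p (2.10%), miR-378i (2.11%) and miR-34c-5p (2.27%). This order held under the housekeeping scaling only, since with the total miRNA count as scale the CVs of these 5 were 8.48% to 11.4%, above the median of 6.72% on that scale. The ratio of miRNA counts to housekeeping counts was 2.99, 3.06 and 3.67, so that replicate 3 moved relative to the others with the choice of scaling.

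In 5 miRNAs the CV was above 30%. miR-579-3p, whose hairpin (chr5:32394378-32394475) lies within the span of ZFR, varied most, with 159, 676 and 1175 counts and a CV of 91.9%. Its rank was 101, 54 and 30 in replicates 1 to 3, and no value was close to another. miR-92a-3p (72, 106 and 131 counts, CV 45.3%), miR-1253 (118, 170 and 189, 37.8%), miR-378h (69, 115 and 112, 35.2%) and miR-423-5p (359, 509 and 505, 30.1%) followed, and all 5 were lowest in replicate 1. With the total miRNA count as scale, only miR-579-3p (83.7%) and miR-92a-3p (34.6%) stayed over 30%.

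**Figure D5:**
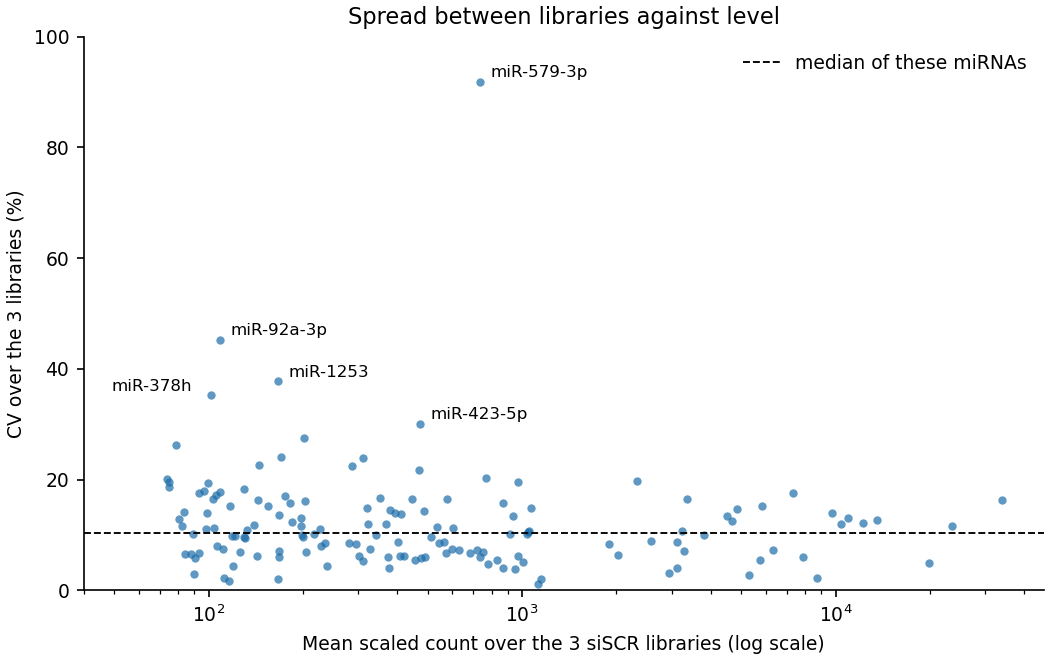
CV over the 3 siSCR libraries (%, vertical axis) against the mean scaled count (horizontal axis, log scale) of the 150 miRNAs above background, with a dashed line at the median of 10.4%. miR-579-3p at 91.9% stands apart, and the median CV was 11.5% for miRNAs with 1% or more of the counts, 8.74% for those from 0.1% to 1% and 11.6% below that.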

How the data were processed

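Counts were taken from the 3 siSCR libraries as deposited by the authors: raw nCounter counts of 822 probes per library, before any correction, 798 of them for miRNAs, 5 for housekeeping mRNAs and 5 for spike-ins, with 6 positive and 8 negative controls. The authors also deposited a table of scores of all samples. In it the 24 control rows equalled the raw counts, and the miRNA values were straight lines of the raw counts with slopes at 5 levels (medians of 0.765 to 1.26). Such slopes change the order of miRNAs, so the table served only as an alternative. The study's methods name NanoStringDiff, which was not used here.

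A miRNA was above background where its count exceeded the mean plus 2 SD of the 8 negative controls in each of the 3 libraries. Shares were raw counts over the summed miRNA counts. For the CV, counts were divided by the product of a positive-control slope factor and the median housekeeping ratio (0.992, 1.20 and 0.796). Python 3.11.15 with pandas 2.3.3 was used, and the code of the background call was run on simulated data. Simulated background had counting noise only around the mean of the negative controls, and the real controls spread more widely. The simulation therefore cannot tell how often a real background probe passes the limit. No groups were compared, so no test was run. Probes held 21 sets of several miRNAs, of which 5 were above background. Sequences and hairpin positions came from RefSeq (GRCh38.p14), and gene spans were read without strand.

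Named were the 20 miRNAs with the highest share, up to 4 leading members of each of 65 lists, the 5 nearest to the limit on each side, the 5 highest and lowest CVs, the 13 signature miRNAs and miR-16-5p. let-7d-5p, let-7f-5p, let-7g-5p, miR-98-5p, miR-4458, miR-590-5p, miR-497-5p, miR-195-5p, miR-542-3p, miR-205-5p, miR-203a-3p, miR-223-3p, miR-124-3p, miR-153-3p, miR-129-5p and the precursors with both arms were chosen after their values were seen. The members, limits and lists were chosen with earlier results of these data known. Other limits, subtraction of background, other denominators and scalings, the authors' table and leaving out each library were tried.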

Additional observations from a re-analysis of the deposited data

Results flagged for a closer look

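Outside the miRNA probes, 3 control sequences that should have no target in human cells gave counts over the background limit of their own library. The negative control NEG_C gave 57, 77 and 77 counts in siSCR replicates 1 to 3, where the limits were 53.1, 70.6 and 68.0, so that 1 of the 8 sequences that define the limit lay above it in every library. The rice spike-in probe osa-miR414 gave 86 counts in replicate 3, against 53 in replicates 1 and 2. The rice spike-in probe osa-miR442 gave 65 counts in replicate 1, over the limit of 53.1, and 70 and 65 in replicates 2 and 3, which was not over theirs. The other 3 spike-in probes lay between 15 and 29 counts. The methods do not say whether spike-in RNA was added. With 3 libraries, no sample could be tested as an outlier.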

How the results depend on the processing

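The set above background depended on the limit. It held 150 miRNAs, and 130 to 158 with the mean plus 3 SD, the highest negative control, a log2 scale or 2 of 3 libraries, but 259 without the highest negative control and 274 as those above 0 in the authors' table. Leaving out a library gave 150 to 158. The 10 leading miRNAs were the same 10 under every alternative. Their share of 52.1% was 56.2% with background subtracted, 55.6% over the miRNAs above background only and 54.5% in the authors' table, and 51.9% to 52.4% without 1 library. let-7a-5p led throughout, and its share of 11.7% was 12.6% with background subtracted and 12.5% over those above background, and 11.3% to 12.0% without 1 library. In the authors' table its share was 11.6%, with miR-29b-3p close behind at 11.1%, against 8.13% for miR-29b-3p in the raw counts. The miRNAs needed for 90% of the counts, 82 in all, were 45 with background subtracted, 47 over those above background, 49 in the authors' table and 81 to 82 without 1 library. The median CV of 10.4% was 6.72% with the total miRNA count as scale and 16.1% with none, and 5.42% to 12.0% without 1 library, lowest without replicate 3. The precursors with both arms above background, 9 in all, were 17 without the highest negative control. Of 65 lists, the number above background changed by over 1.5 times in 23 without the highest negative control, in 7 with the mean plus 3 SD and in 7 without replicate 3 (among them the miR-200, miR-181 and miR-199a/214 lists), but in none without replicate 1 or 2. The share of counts moved by more than its SD in 57 of the 65 lists in the authors' table and in 51 with background subtracted, and in none on leaving out 1 library. No paired analysis was possible because only 1 group was described. Depth limits miRNAs with fewer counts than the limit, for which neither a level nor an absence can be stated.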
